A study of Mus musculus with 9 samples.

Results

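Collagen modifying, folding and crosslinking enzymes were examined in the central cornea of 3 inbred mouse strains. The group was listed by gene name, with earlier results of these data known, and held 10 genes: Lox, Loxl1 and Loxl2, Plod1, Plod2 and Plod3, Serpinh1, P3h1, Fkbp10 and Fkbp14. Of these 10 genes, 8 had at least 1 probe set annotated with that gene symbol alone, out of 18193 such genes on the array. Loxl2 was annotated only on probe sets that also carry another symbol, and Fkbp10 was not analysed here. The 8 measured genes had 16 probe sets, of which 11 were bright enough to be tested. All 8 were represented by a tested probe set, the one with the highest mean over the arrays, and any other probe sets served as a check.

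The arrays compared corneas of SJL/J (SJL), which the labels give as thick, C57BLKS/J (KS), which they give as thin, and C57Bl/6J (B6), for which they give no thickness. All mice were males 4 months old, and each of the 3 arrays per strain held RNA from the pooled 2-mm central punches of both eyes of 1 mouse. Each strain is inbred, so the arrays of a strain replicate its genotype as a whole, and thickness cannot be told apart from the rest of what distinguishes these strains. The values were probe set intensities in arbitrary units on a linear scale, which are comparable between arrays for 1 probe set but not between genes.

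Collagen chains are modified in the endoplasmic reticulum before they fold. Prolyl hydroxylases stabilise the triple helix, lysyl hydroxylases (the Plod enzymes) prepare the lysines that later carry crosslinks, and peptidyl-prolyl isomerases and the chaperone HSP47, encoded by Serpinh1, assist folding. After secretion, lysyl oxidases (Lox and the Loxl enzymes) oxidise these lysines so that fibrils become crosslinked. In the cornea this network of fine collagen fibrils forms the stroma, made by keratocytes, and its order and crosslinking are known to bear on corneal strength and transparency.

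Differences were tested with limma on log2(intensity + 10), with p-values adjusted over all 22519 probe sets tested, and called where the adjusted p was under 0.05. The arrays were alike in brightness, with upper quartiles of 380.4 to 397.6. Among the cell type markers, some corneal epithelial and keratocyte genes were bright on every array, such as Krt12, the keratin of corneal epithelium, and Kera, keratocan. Thy1, also on the keratocyte list, lay at the dim end of the range, as did Ptprc, Adgre1, Cd3e, Muc5ac and the 5 muscle markers. On KS replicate 3 the summed intensity of 5 photoreceptor genes was 4724.6, against 24.36 to 33.794 on the other 8 arrays. B6 replicate 3 had the highest 3' over 5' control signal of Gapdh, a log2 ratio of 1.55, against 0.73 to 1.17 elsewhere. Results that depend on these arrays are given with and without them.

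In the thin KS cornea, 2 genes of procollagen folding and modification, Fkbp14 and P3h1, stood above both other strains on every array. Fkbp14 was 0.62 log2 units lower in SJL than in KS and P3h1 0.81 log2 units lower, and both were called. None of the 3 lysyl hydroxylases, neither measured lysyl oxidase nor the representative probe set of Serpinh1 was called in any comparison. By the moderated F-test over the 3 strains, 2 of the 8 measured genes were called, beside 19.4% of all genes tested. In SJL against KS, 0 of the 8 were called higher and 2 lower, where 14.8% of all genes tested were called, 6.82% higher and 8.01% lower (15.5% of probe sets). In KS against B6, 1 of 8 was called, higher in KS, against 6.25% of all genes, 3.39% higher and 2.87% lower (5.71% of probe sets). In SJL against B6, 0 of 8 were called by limma and 1 had an unadjusted p under 0.05, against 16% of all genes called, 8.38% higher and 7.63% lower (16% of probe sets). With 8 genes these shares do not set the group apart from the rest of the array. The 3 comparisons share arrays, so they are not independent of one another.

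**Figure D1:**
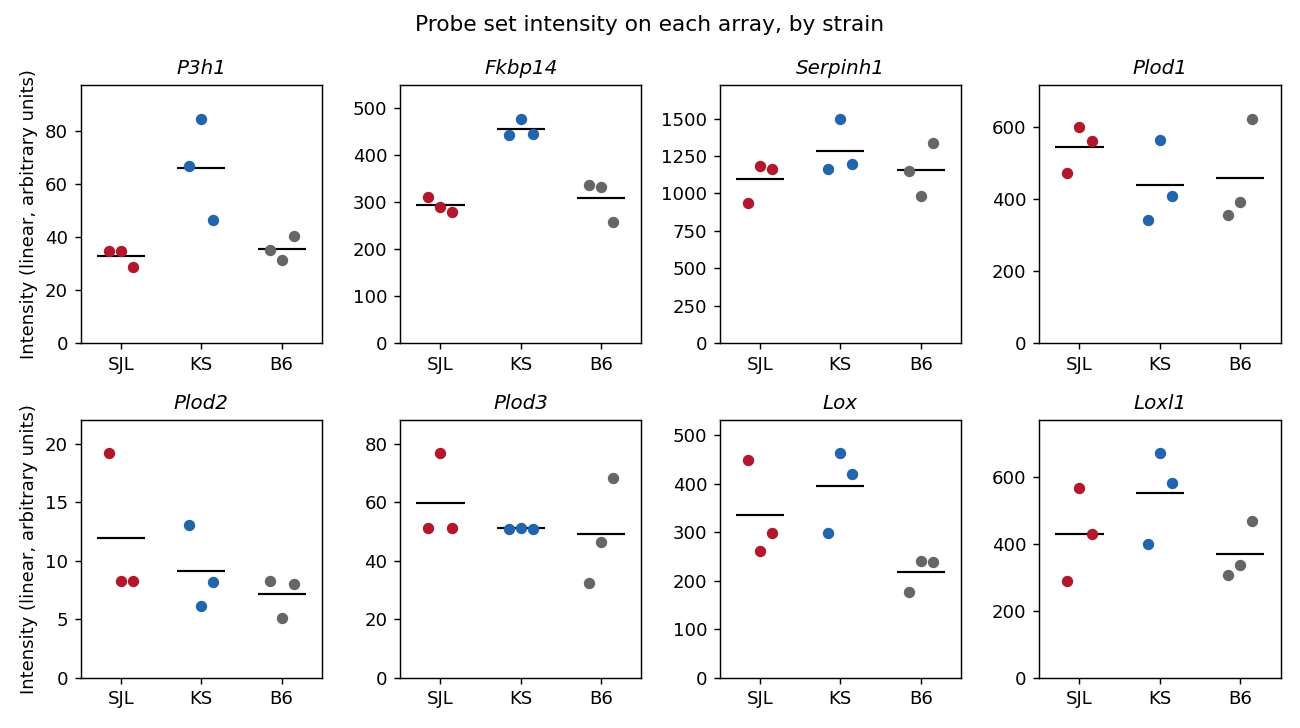
Intensity of the representative probe set (linear scale from 0, arbitrary units) for the 8 measured genes on each of the 3 arrays of SJL, KS and B6. Points are arrays and horizontal lines are strain means. Fkbp14 and P3h1 lay higher on all 3 KS arrays than on any SJL or B6 array, and Lox lay lowest on the 3 B6 arrays.

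Fkbp14 encodes an endoplasmic reticulum peptidyl-prolyl isomerase that binds procollagen, and its loss in humans causes a form of Ehlers-Danlos syndrome. Its intensity was 309, 289 and 279 on the SJL arrays, 442, 477 and 445 on the KS arrays and 336, 331 and 256 on the B6 arrays. All 3 KS values lay above the 6 values of the other strains, while SJL and B6 overlapped. The means were 293 ± 15.5 in SJL, 454 ± 19.4 in KS and 308 ± 44.7 in B6 (SD, n = 3 each). In SJL against KS the log2 difference was -0.62 ± 0.12 (SE) with a 95% interval of -0.88 to -0.36 (limma adjusted p = 0.00767). This call was kept under all 22 alternatives run, with log2 differences of -0.66 to -0.31. The -0.31 came from the mean of all its probe sets, which adds a flat, dim probe set and gives no check.

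In KS against B6 Fkbp14 differed by 0.56 (95% interval 0.29 to 0.82, limma adjusted p = 0.0268). Leaving out KS replicate 1 (adjusted p = 0.066), KS replicate 2 (0.114) or KS replicate 3 (0.0825) ended that call, as did 4 of the other alternatives. Without KS replicate 3 and B6 replicate 3 together, a choice made after seeing the data, the difference was 0.45 (0.109). Between SJL and B6 Fkbp14 differed by -0.06, with a 95% interval of -0.32 to 0.20. The order of levels was therefore KS above B6 and SJL, with B6 and SJL not distinguishable. The other Fkbp14 probe set lay between 4.21 and 4.29 on all arrays, at the dim end of the range, and gives no check.

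P3h1 encodes prolyl 3-hydroxylase 1, which acts in a complex with Crtap and Ppib (cyclophilin B) on fibrillar procollagen, and whose loss in humans causes osteogenesis imperfecta. Its probe set was dim, with 34.6, 34.6 and 28.5 in SJL, 66.8, 84.5 and 46.5 in KS and 34.8, 31.2 and 40.5 in B6. The 3 KS arrays again lay above all 6 others, although KS replicate 3 was close to B6 replicate 3. Means were 32.6 ± 3.52 in SJL, 65.9 ± 19 in KS and 35.5 ± 4.64 in B6 (SD, n = 3 each). The log2 difference in SJL against KS was -0.81 ± 0.18 (SE; 95% interval -1.22 to -0.39, limma adjusted p = 0.0179). It was not called without SJL replicate 3 (0.0682), KS replicate 1 (0.0601) or KS replicate 2 (0.0507), nor with no filter on dim probe sets (0.0671). The P3h1 difference was still called but smaller with a pseudocount of 50 (-0.48). With the mean of all its probe sets it was -0.40 and called. That mean adds a flat probe set at the dim end of the range, which shrinks difference and spread alike, so it gives no check. Without KS replicate 3 and B6 replicate 3 together, SJL against KS was -0.63 for Fkbp14 (limma adjusted p = 0.0109) and -1.005 for P3h1 (adjusted p = 0.00649).

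KS and B6 differed in P3h1 by 0.71 (95% interval 0.30 to 1.12), which missed the threshold (limma adjusted p = 0.0603) and was called without KS replicate 3 (0.91, adjusted p = 0.0149). SJL and B6 differed by -0.10 (95% interval -0.51 to 0.32). P3h1 thus also ordered the strains with KS highest, and SJL and B6 not distinguishable. Its other probe set lay between 4.83 and 5.14 and was not tested.

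Because Fkbp14 and P3h1 were both highest in KS, the 250 bases before each of their annotated starts are shown, from RefSeq on GRCm38.p6. RefSeq promoters were at hand for 5 of the 10 genes. The sequence is that of C57BL/6J, so any base that differs in KS or SJL is not seen in it. Capitals mark the CCAAT box and the GC box GGGCGG on either strand, so a CCAAT box on the other strand reads as its reverse complement.
Fkbp14, outer start, chr6:54597345-54597594, minus strand: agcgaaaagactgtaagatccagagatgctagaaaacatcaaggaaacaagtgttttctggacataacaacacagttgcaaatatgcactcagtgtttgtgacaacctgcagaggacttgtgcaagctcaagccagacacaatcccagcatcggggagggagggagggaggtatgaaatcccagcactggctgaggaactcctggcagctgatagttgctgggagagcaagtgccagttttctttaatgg
Fkbp14, inner start, chr6:54593175-54593424, minus strand: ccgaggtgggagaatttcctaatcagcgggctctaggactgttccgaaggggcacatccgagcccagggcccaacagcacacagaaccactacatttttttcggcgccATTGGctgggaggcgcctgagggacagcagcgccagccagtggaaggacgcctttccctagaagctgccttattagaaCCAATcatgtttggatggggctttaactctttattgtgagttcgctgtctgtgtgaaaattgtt
P3h1, outer start, chr4:119232665-119232914, plus strand: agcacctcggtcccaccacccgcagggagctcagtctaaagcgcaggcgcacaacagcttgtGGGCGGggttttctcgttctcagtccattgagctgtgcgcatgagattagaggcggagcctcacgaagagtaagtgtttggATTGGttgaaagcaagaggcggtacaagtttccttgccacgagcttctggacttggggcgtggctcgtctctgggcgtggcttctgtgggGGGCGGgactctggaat
P3h1, inner start, chr4:119233579-119233828, plus strand: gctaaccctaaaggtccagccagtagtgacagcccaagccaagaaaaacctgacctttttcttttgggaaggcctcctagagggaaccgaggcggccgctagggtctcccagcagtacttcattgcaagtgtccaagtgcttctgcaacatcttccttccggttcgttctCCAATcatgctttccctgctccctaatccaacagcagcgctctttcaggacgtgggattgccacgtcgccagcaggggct

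The CCAAT box was present in 3 of these 4 windows, 2 times at the inner Fkbp14 start and 1 time at each P3h1 start. Of the other 3 windows at hand, not shown, it was present in that of Plod3 and not in those of Plod1 and Serpinh1. It was present in 33.8% of all 32851 windows of the same length. GGGCGG occurred 2 times at the outer P3h1 start and in no other window shown, though also in those of Plod1 and Serpinh1, beside 32.7% of all windows. The hypoxia response core ACGTG occurred 2 times at the inner P3h1 start, in no other window shown, and in those of Plod3 and Serpinh1, beside 16.6% of all windows. TATAAA (12.4% of all windows), the heat shock core GAANNTTC (6.69%) and the endoplasmic reticulum stress element, CCAAT and CCACG with 9 free bases between (0.113%), were found in none of the 4 windows on either strand. The stress element contains the CCAAT box, so these motifs overlap by construction. The outer Fkbp14 window held none of the 6 motifs and had 48% G and C bases, against 53.2% for the inner one, 58.4% and 54.8% for P3h1 and a median of 52.4% over all windows. These are matches of letters and not measured binding sites.

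Serpinh1 encodes HSP47, the collagen-specific chaperone. The representative probe set had intensities of 938, 1185 and 1165 in SJL, 1165, 1501 and 1195 in KS and 1150, 981 and 1334 in B6. The strains overlapped, and SJL differed from KS by -0.23 (95% interval -0.58 to 0.13, limma adjusted p = 0.386). The next brightest probe set had 817, 782 and 867 in SJL, 1073, 1406 and 1037 in KS and 967, 904 and 948 in B6. Here all 3 KS arrays lay above the other 6, and SJL against KS was called (-0.49, 95% interval -0.77 to -0.21, limma adjusted p = 0.0276). The probe sets of Serpinh1 thus gave the same direction and different calls. KS against B6 was not called by either, with 0.16 (adjusted p = 0.638) and 0.30 (adjusted p = 0.224) by limma. SJL against B6 gave -0.07 and -0.19 (limma adjusted p = 0.813 and 0.348).

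**Figure D2:**
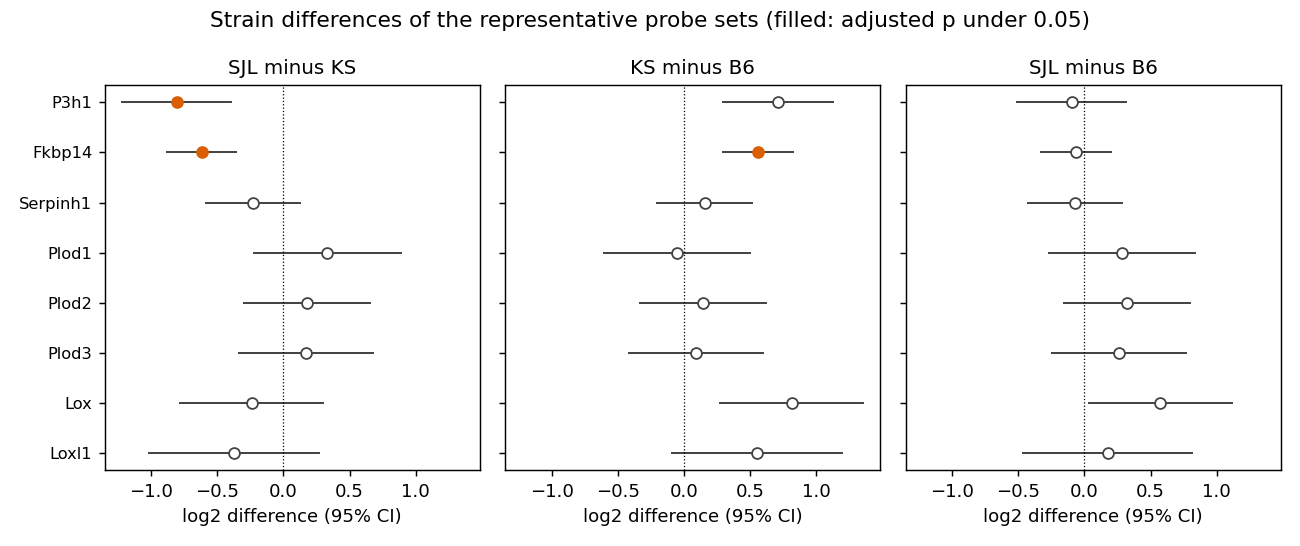
Log2 differences of the 8 measured genes with 95% confidence intervals from limma, in SJL minus KS, KS minus B6 and SJL minus B6. Filled points had an adjusted p under 0.05, which were Fkbp14 and P3h1 in SJL minus KS and Fkbp14 in KS minus B6. The intervals of Plod1, Plod2, Plod3 and Loxl1 all span 0.

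The 3 lysyl hydroxylases showed no called difference, and all 3 had their highest strain mean in SJL. Plod1, which hydroxylates lysines of the triple helix, had 472, 600 and 561 in SJL, 341, 564 and 407 in KS and 356, 391 and 623 in B6. The 3 strains overlapped, with SJL 0.33 above KS (95% interval -0.22 to 0.89, limma adjusted p = 0.415). Plod3, which also adds sugars to hydroxylysine, was dim, with 51, 76.7 and 51.1 in SJL, 50.7, 51.3 and 51 in KS and 32.4, 46.4 and 68.2 in B6. The KS arrays lay within 1 unit of one another and inside the B6 range, while SJL replicate 2 was above all B6 arrays. SJL differed from KS in Plod3 by 0.17 (95% interval -0.34 to 0.68).

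Plod2 encodes the enzyme that hydroxylates lysines of the collagen telopeptides, the source of the most stable crosslinks. It had 19.2, 8.28 and 8.3 in SJL, 13.1, 6.1 and 8.2 in KS and 8.3, 5.11 and 8.04 in B6. The filter kept probe sets whose mean was near 8 intensity units or higher, so Plod2 sat at that edge. Its other probe set lay between 4.48 and 5.89. No difference among strains was detected for Plod2, and SJL minus KS was 0.18 with all arrays and -0.05 without SJL replicate 1.

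Lox, lysyl oxidase, showed its lowest level in B6 without a call. Its intensity was 449, 260 and 297 in SJL, 299, 462 and 420 in KS and 176, 240 and 239 in B6. All 6 SJL and KS arrays lay above the 3 B6 arrays, while SJL and KS overlapped. Means were 336 ± 100.1 in SJL, 394 ± 84.7 in KS and 218 ± 36.7 in B6 (SD, n = 3 each). KS against B6 gave 0.81 (95% interval 0.27 to 1.35, limma adjusted p = 0.0974) and SJL against B6 gave 0.57 (95% interval 0.03 to 1.11, limma adjusted p = 0.147). KS against B6 was called only with array weights, which give noisier arrays less say (0.92, adjusted p = 0.0249).

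The next brightest Lox probe set had 177, 99.8 and 138 in SJL, 89.4, 176 and 162 in KS and 30.2, 69.2 and 86.1 in B6. It placed B6 lowest on all 3 arrays as well, with KS 1.13 and SJL 1.104 above B6 (limma adjusted p = 0.137 and 0.0815). Between SJL and KS the Lox probe sets gave -0.24 (95% interval -0.78 to 0.30) and -0.02 (95% interval -0.87 to 0.82). The least bright Lox probe set lay between 4.4 and 4.52 on all arrays. The strains did not overlap in 3 of the 8 genes in KS against B6, beside 31.1% of all genes tested, in 2 in SJL against KS (35.4%) and in 1 in SJL against B6 (32.7%).

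Loxl1, a lysyl oxidase best known for elastic fibres, had 289, 566 and 428 in SJL, 399.7, 669 and 582 in KS and 308, 335 and 468 in B6. The arrays of each strain spread widely, and SJL against KS gave -0.38 (95% interval -1.02 to 0.26, limma adjusted p = 0.428). Its second probe set was dim, with 41.6, 46.4 and 36.5 in SJL, 54.2, 75.3 and 68.3 in KS and 27.7, 27.5 and 57.9 in B6. In it all SJL arrays lay below all KS arrays, at -0.56 (95% interval -1.08 to -0.03), which did not pass after adjustment (limma adjusted p = 0.152). KS against B6 gave 0.55 and 0.72 in the Loxl1 probe sets (limma adjusted p = 0.33 and 0.13).

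**Figure D3:**
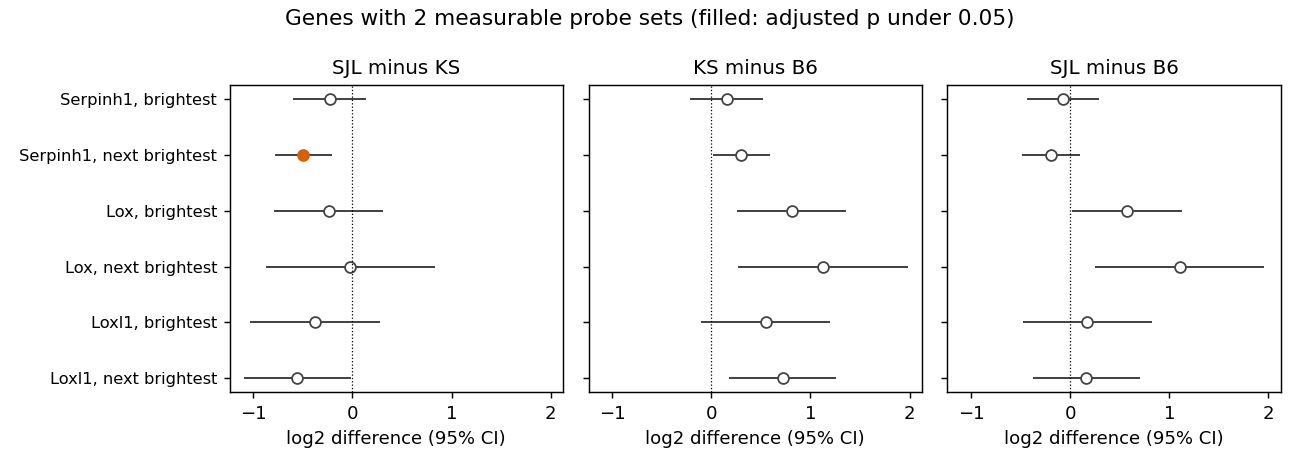
Log2 differences with 95% confidence intervals from limma for the 3 genes with 2 tested probe sets (Serpinh1, Lox and Loxl1), in SJL minus KS, KS minus B6 and SJL minus B6. The probe sets of a gene gave the same sign in each comparison, and only the next brightest Serpinh1 probe set in SJL minus KS was called (filled).

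The array with the highest value within a strain was often the same for several genes, which was not tested. Of the 8 genes 7 had their highest KS value on KS replicate 2, all but Plod2, and that array also had the highest upper quartile of all 9 (397.6). In B6, 5 of 8 were highest on B6 replicate 3, the array with the highest 3' over 5' signal, which was also the lowest B6 array for Fkbp14. In SJL, Lox, Plod2, P3h1 and Fkbp14 were highest on replicate 1 and Loxl1, Plod1, Plod3 and Serpinh1 on replicate 2. SJL replicate 2 had the highest 3' over 5' signal of the SJL arrays, a log2 ratio of 1.165. The pooled SD within strains on the log2 scale ran from 0.13 for Fkbp14 to 0.39 for Loxl1. Over the 8 genes the median log2 difference was -0.23 in SJL against KS, 0.35 in KS against B6, and SJL against B6 gave 0.22. Over all genes tested the medians were 0.02, 0.01 and 0.02. In the same order, the keratocyte markers described below had medians of -0.27, 0.06 and -0.12. Fibril-forming collagens had -0.32, 0.17 and -0.26, and corneal endothelial markers -0.40, 0.22 and -0.34. General endoplasmic reticulum folding genes went the other way, with 0.29, -0.13 and 0.10. A median below 0 for SJL against KS was therefore not particular to the 8 genes.

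Markers of cell types moved in part with these differences. The summed intensity of 10 keratocyte markers was 45401 to 47419 in SJL, 51097 to 53676 in KS and 47322 to 52081 in B6, so SJL and KS did not overlap. Of the 9 keratocyte markers tested, 0 were higher and 2 lower in SJL than in KS, namely Dcn, decorin (-0.37, limma adjusted p = 0.0168), and Vim, vimentin (-0.37, adjusted p = 0.0327), while Kera differed by 0.01 and Lum by 0.04. Neither held when SJL replicate 3 or KS replicate 2 or 3 was left out, and Vim also not without B6 replicate 1, KS replicate 1 or SJL replicate 1. Of 5 corneal endothelial markers tested 2 were lower in SJL than in KS, and their sum was 8387.4 to 10248 in SJL, 12898 to 14191 in KS and 11041 to 14215 in B6. Of 6 conjunctival and limbal markers 3 were lower, with sums of 7273.6 to 8979 in SJL, 22239 to 25252 in KS and 24713 to 30114 in B6. The 3 differed unevenly, with Krt15 at -6.70, Gpha2 at -1.78 and Krt13 at -1.72, and such sums weigh the brightest genes most. In SJL against B6, 1 gene of the conjunctival and limbal list was called higher and 4 lower. The higher one was Krt19 (0.67, limma adjusted p = 0.0192), lost in 4 of 22 alternatives. The lower ones were Krt15 (-7.21), Krt4 (-2.97), Krt13 (-1.70) and Gpha2 (-1.67). The part of these cell types in the results was not tested. The sum over 9 corneal epithelial markers was 150270 to 157300 in SJL, 151250 to 153150 in KS and 155950 to 158410 in B6. In tissue of mixed cells, fewer cells of a type and less RNA per cell cannot be told apart. With each array centred on Kera, Lum and Dcn, SJL against KS remained called for Fkbp14 (-0.51, limma adjusted p = 0.026) and P3h1 (-0.70, adjusted p = 0.022). Fkbp14 in KS against B6 was then 0.50 and not called (adjusted p = 0.062). Since Kera and Lum hardly differed, the centring moved the median of all probe sets in SJL against KS only from 0.006 to 0.116. It is therefore no test of keratocyte content.

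Among other genes of procollagen processing, Fkbp7 had the pattern of Fkbp14. This second endoplasmic reticulum isomerase of the FK506-binding family had 538, 573 and 398 in SJL, 867, 1040.2 and 905 in KS and 474, 544 and 644 in B6. All KS arrays lay above the other 6. SJL against KS gave -0.90 (limma adjusted p = 0.00719), called under all 22 alternatives, and KS against B6 gave 0.76 (adjusted p = 0.0338), lost in 8 of 22, among them without KS replicate 1, 2 or 3 or B6 replicate 1 or 2 (up to 0.136). Of the 3 isomerases tested in that list, 1 was lower and 0 higher in SJL than in KS. Fkbp2 and Fkbp9 gave 0.11 and 0.10 and were not called.

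The prolyl hydroxylation list held 8 tested genes, of which 1 was lower and 0 higher in SJL than in KS, 1 higher and 0 lower in KS than in B6, and 1 higher and 0 lower in SJL than in B6. P4ha1, the catalytic subunit of the main prolyl 4-hydroxylase, had 554, 552 and 484 in SJL, 737, 732 and 650.0 in KS and 571, 502 and 503 in B6. All KS arrays were again the highest, at -0.41 in SJL against KS (limma adjusted p = 0.0259) and 0.42 in KS against B6 (adjusted p = 0.0477). The first did not hold when KS replicate 1 or 2, SJL replicate 3, or KS replicate 3 with B6 replicate 3 was left out, or with centring on keratocyte genes (0.0505 to 0.0944), and the second in 18 of 22 alternatives, which include leaving out any 1 of the 9 arrays. A second P4ha1 probe set gave -0.24 (0.0737) and 0.24 (0.136).

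The partners of P3h1 and of the lysyl hydroxylases gave no call in SJL against KS. P3h4, which encodes a partner of lysyl hydroxylase 1, had 989, 1383 and 1149 in SJL, 1121, 1156 and 1099 in KS and 671, 787 and 862 in B6. B6 was lowest on all arrays, and SJL against B6 was called (0.59, limma adjusted p = 0.0219), but not without B6 replicate 1 or 2 or SJL replicate 3. Crtap and Ppib, which form a complex with P3h1, differed in SJL against KS by 0.06 and -0.11 and were called in no comparison. P4hb, the other prolyl 4-hydroxylase subunit, gave -0.08.

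Colgalt1, which adds galactose to hydroxylysine, went the other way. It had 455, 582 and 565 in SJL, 486, 501 and 564 in KS and 764, 680.5 and 781 in B6, so B6 lay above all other arrays. SJL against B6 gave -0.47 (limma adjusted p = 0.0289) and KS against B6 -0.51 (adjusted p = 0.043). These calls were lost in 9 and 11 of 22 alternatives, both without B6 replicate 1 or 3 or SJL replicate 3. The first was also lost without SJL replicate 1, and the second without B6 replicate 2 or any KS replicate. A second Colgalt1 probe set had the same signs and was called in neither comparison, at -0.36 and -0.70 (limma adjusted p = 0.308 and 0.11). In the procollagen proteinases and enhancers 0 of 4 tested genes were called by limma in any comparison, with an unadjusted p under 0.05 for 1 gene in SJL against B6 and for 0 in either comparison with KS. Pcolce, the procollagen C-proteinase enhancer, was at 4645 to 4939 in SJL, 4111 to 4501 in KS and 3885 to 4325 in B6 (SJL against KS 0.14, adjusted p = 0.317). Loxl3 and Loxl4 lay at the dim end of the range and were not tested.

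Procollagen export genes gave 1 higher and 1 lower of 7 in SJL against KS and the same counts in SJL against B6. Creb3l2, a transcription factor of secretory genes, was at 134, 109 and 110.1 in SJL, 423, 455 and 378 in KS and 308, 320 and 344 in B6 (SJL against KS -1.75, limma adjusted p = 1.83e-05). A second probe set of Creb3l2 gave -0.39 (0.165). Tmem38b, an endoplasmic reticulum channel whose loss in humans causes osteogenesis imperfecta, was at 356, 308 and 301 in SJL, 220, 193 and 202 in KS and 154, 198 and 207 in B6. SJL lay above KS on all arrays (0.62, adjusted p = 0.0115), and 0 of 3 other Tmem38b probe sets were called in the same direction. Over the 24 tested genes of the 6 processing lists, 1 was higher and 3 lower in SJL than in KS, 2 higher and 1 lower in KS than in B6, and 2 higher and 2 lower in SJL than in B6. Their medians were -0.09, 0.12 and 0.04.

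**Figure D4:**
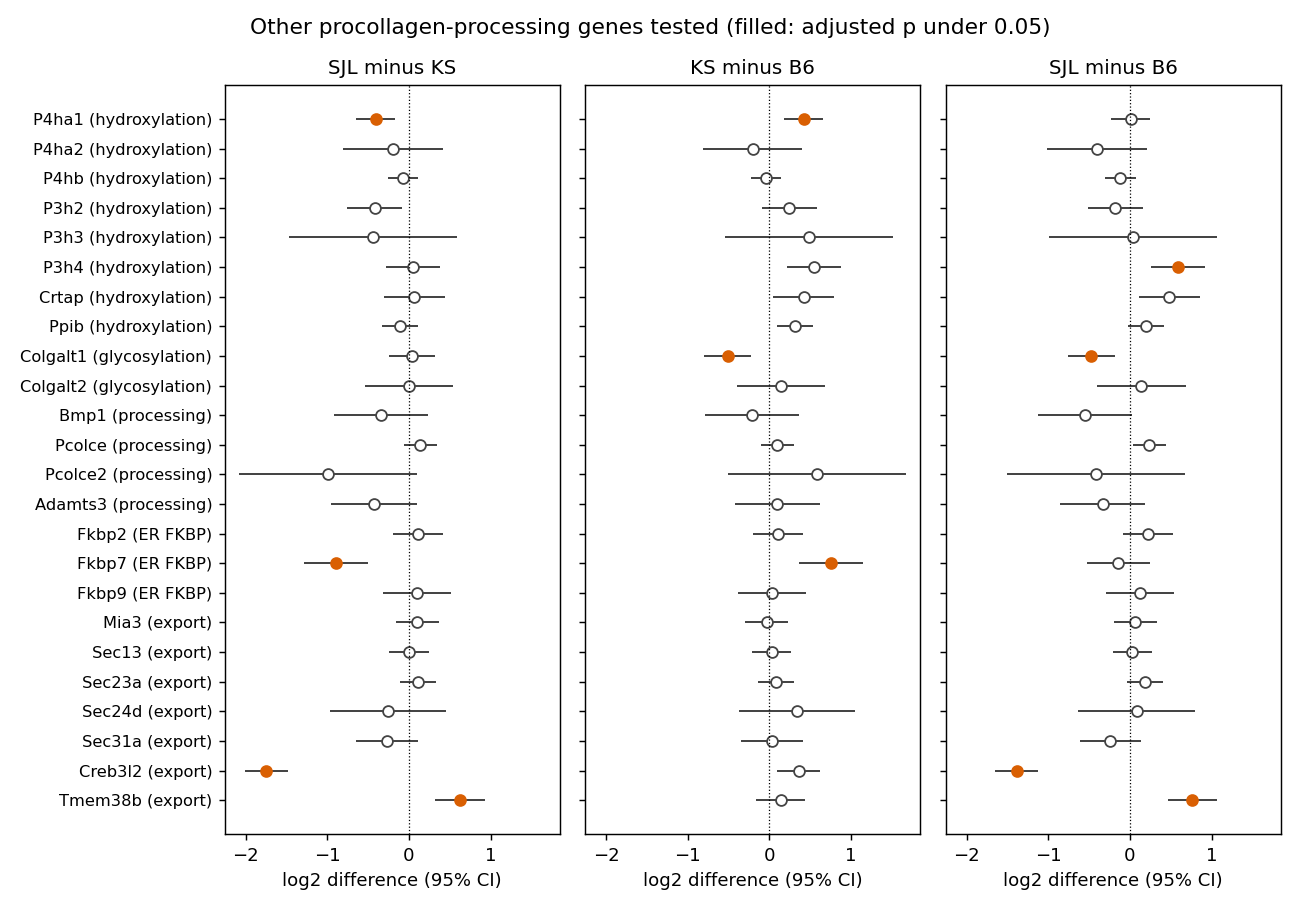
Log2 differences with 95% confidence intervals from limma for the 24 tested genes of prolyl hydroxylation, collagen glycosylation, procollagen processing, other endoplasmic reticulum FK506-binding proteins and procollagen export, in SJL minus KS, KS minus B6 and SJL minus B6. Filled points had an adjusted p under 0.05. Fkbp7 and P4ha1 were filled below 0 in SJL minus KS and above 0 in KS minus B6.

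Genes of general folding and stress in the endoplasmic reticulum gave 2 calls, both in the other direction. These genes are chaperones, disulfide isomerases and the transcription factors Xbp1 and Ddit3. Of 10 tested, 2 were higher and 0 lower in SJL than in KS, beside 6.82% and 8.01% of all genes tested. By estimate 7 were higher and 3 lower, the 3 being Pdia3 (-0.14), Calr (-0.03) and Canx (-0.01). In either comparison with B6, 0 were called (1 and 3 at an unadjusted limma p under 0.05). Hspa5 (BiP) had 7852, 8716 and 8820.0 in SJL, 6303, 6352 and 6653 in KS and 6888, 7315 and 7315 in B6 (SJL against KS 0.39, limma adjusted p = 0.013). Hspa5 was not called without KS replicate 2 or SJL replicate 3 (0.0513 and 0.0539). A second Hspa5 probe set was called as well (0.37, limma adjusted p = 0.022). Pdia4, a protein disulfide isomerase, was higher by 0.81 (adjusted p = 0.0338), lost in 9 of 22 alternatives, among them without B6 replicate 1 or 2, KS replicate 1 or 3 or SJL replicate 2 or 3.

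The collagen substrates of these enzymes were mostly not called. Of 6 fibril-forming collagen genes tested, 0 were higher and 1 lower in SJL than in KS, and 1 was higher in KS than in B6, Col3a1 in both cases. By estimate alone all 6 lay lower in SJL than in KS, with a median of -0.32. Among the uncalled ones, Col5a1 gave -0.68 (limma adjusted p = 0.144). In KS against B6, 4 of the 6 estimates were above 0 and 2 below. Col3a1, a minor chain of the stroma, had 12, 21.4 and 15.5 in SJL, 85.4, 119 and 81.5 in KS and 11, 7.45 and 46.3 in B6. All KS arrays were the highest, and B6 replicate 3 stood above the rest of B6. SJL against KS gave -2.00 (limma adjusted p = 0.0104) and KS against B6 1.93 (adjusted p = 0.0267), the second lost in 9 of 21 alternatives, among them without B6 replicate 1 or 2, KS replicate 1, 2 or 3 or SJL replicate 3. Col1a1 and Col1a2, the main stromal chains, differed by -0.29 and -0.26 in SJL against KS and were not called. Col11a1 was lower in SJL than in B6 (-1.19, limma adjusted p = 0.0334). That call was lost in 11 of 21 alternatives, among them without any SJL or KS replicate or B6 replicate 1. Col11a1 was at 7.42 or lower in SJL, 7.43 or lower in KS and 29.5, 12.2 and 53.4 in B6. Only the B6 arrays lay above the filter level near 8. Col11a1 was thus tested only because B6 was high, and its call partly restates the filter.

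Partners of lysyl oxidase and TGF-beta ligands, which are known to raise matrix gene expression, differed by gene. Of 4 lysyl oxidase partners tested, 1 was higher and 1 lower in SJL than in KS. They were Fn1, fibronectin (1.14), and Fmod, fibromodulin, which guides collagen crosslinking (-3.74). Postn, periostin, was at 148, 250.1 and 249.98 in SJL, 215, 238 and 242 in KS and 114, 89.4 and 133 in B6, with B6 lowest as for Lox. Postn was called in SJL against B6 (0.86, limma adjusted p = 0.0255) and KS against B6 (1.00, adjusted p = 0.0296), each lost in 7 of 21 alternatives, among them without B6 replicate 1 or 2. Without KS replicate 1, 2 or 3 the KS against B6 call of Postn was lost, and without SJL replicate 2 or 3 the other.

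Tgfb2 had 169, 144 and 91.7 in SJL, 222, 327 and 315 in KS and 137, 141 and 127 in B6, with KS highest on every array as for Fkbp14. SJL against KS gave -1.06 (limma adjusted p = 0.0126), lost without KS replicate 2 or 3, and KS against B6 gave 1.02 (adjusted p = 0.0319), lost in 8 of 21 alternatives, among them without any B6 replicate or KS replicate 2 or 3. Tgfb1 went the other way, at 80.8, 148 and 110.4 in SJL, 57.6, 64.8 and 64.3 in KS and 51.9, 54.2 and 53 in B6 (SJL against KS 0.73, adjusted p = 0.0244). Leaving out KS replicate 1, 2 or 3 or SJL replicate 3 ended the Tgfb1 call. Of 9 hypoxia-induced genes, 1 was lower and 0 higher in SJL than in KS, Bnip3 (-1.13, adjusted p = 0.0356, lost in 8 of 22 alternatives, among them without KS replicate 1 or 3, B6 replicate 1 or SJL replicate 2 or 3). Egln3, the brightest of that list, gave 0.11.

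Over the 9 arrays, the genes whose log2 values were most like those of Fkbp14, among 10948 tested, were Ccdc28b (Pearson r = 0.9663), Slc30a9 (0.965) and Ntan1 (0.9635). For P3h1 they were Col4a4, a collagen IV chain (0.9729), Zfp12 (0.9665) and Gap43 (0.9591). Arrays of a strain share a genotype, so these values describe the strain pattern over 9 arrays and carry no test. Ccdc28b was at 634, 672 and 630.5 in SJL, 944, 1009.6 and 1052 in KS and 708, 646 and 545 in B6. All KS arrays lay above the others and B6 replicate 3 lowest, as for Fkbp14. Col4a4 was at 1212, 1158 and 1065 in SJL, 1587, 1698 and 1352 in KS and 1181, 1037 and 1161 in B6, with the lowest KS value on KS replicate 3, as for P3h1.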

How the data were processed

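RNA from central cornea was measured on 9 arrays, 3 each of SJL, KS and B6. Purified, DNase-treated RNA was labelled with biotin for Affymetrix arrays, per the labels' protocols. The authors deposited 1 linear intensity per probe set and array, summarised and scaled by the authors with methods not given in the sources used here. Of 45037 probe sets without controls, 34945 had 1 symbol in the platform annotation, 932 several and 9160 none.

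The intensities were used as log2(intensity + 10). Differences are on that scale, which understates changes of dim genes. Probe sets below the 50th percentile of mean log2 value were left out. A mean per strain was fitted to all 9 arrays with limma 3.58.1 in R 4.3.3 (6 residual degrees of freedom), two-sided, with Benjamini-Hochberg adjustment. The code was tested on simulated data. 3 arrays per strain limit the precision, since arrays have no read depth. Exact permutation of 3 against 3 cannot go below 0.1 and was not used.

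Members and gene lists were chosen with earlier results of these data known. By rule all members were named, with up to 3 genes per list called by the F-test, or the brightest, and the 3 genes most correlated with each called member. The marker lists did not follow this rule in full. Called genes of the endothelial, leukocyte, lens and vessel lists were left unnamed. Crtap, Ppib, P4hb, Xbp1, Ddit3, Fkbp2, Fkbp9, Col1a1, Col1a2 and the uncalled markers were named for their roles after values were seen. Bnip3, Col5a1, Pdia3, Calr, Canx, Loxl3, Krt13 and Krt19 were also named outside the rule, after values were seen. Titles give the strains the same replicate numbers, but nothing says that these pair mice. Alternatives changed the filter, scaling, pseudocount, variance model, array weights, replicate block, probe set choice and arrays used.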

Additional observations from a re-analysis of the deposited data

How the results depend on the processing

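Of 528 values of the 8 genes under alternatives, 501 kept their direction and their side of the threshold, 11 lost a call, 4 gained one and 12 changed sign, none of the 12 being called. Members called in SJL against KS numbered 2, or 1 with no filter and 1 at the 70th percentile, where 5 members were tested, and 1 to 2 when each array was left out in turn. In KS against B6 they numbered 1, or 0 with no filter, with centring on Kera, Lum and Dcn and with only the 6 arrays compared, 2 with array weights, and 0 to 1 over the arrays left out. By the F-test they numbered 2, or 1 with no filter, 1 at the 70th percentile, 3 with array weights and 1 to 2 over the arrays left out. In SJL against B6 they numbered 0 throughout.

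Probe sets called in SJL against KS numbered 3489, or 2101 at the 70th percentile, 7121 with array weights (gene-by-gene method) and 2337 to 3643 with an array left out. In KS against B6 they numbered 1286, or 838 with no filter, 742 at the 70th percentile, 2139 with array weights, 639 without KS replicate 3 and B6 replicate 3 (an alternative chosen after seeing the data) and 745 to 1452 with an array left out. In SJL against B6 they numbered 3605, or 2156, 5546, 2366 and 2523 to 3674 under the same choices except no filter. The 70th percentile tests fewer probe sets, and leaving out arrays uses fewer samples; elsewhere the cause was not tested. Centring on Kera, Lum and Dcn moved the median of all probe sets in SJL against KS to 0.116, against 0.0061 as deposited. It gave 2351 higher and 1437 lower, against 1571 and 1918, and in KS against B6 494 and 725, against 655 and 631.

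Signs turned for Plod2 in SJL against KS without SJL replicate 1 (-0.048, at most 0.32 with another array left out) and for Plod3 in KS against B6 without B6 replicate 1 (-0.12, at most 0.32). They turned for Plod1 in KS against B6 with array weights (0.083), without B6 replicate 3 (0.19), without KS replicate 1 (0.11, lowest -0.24) and without KS replicate 3 and B6 replicate 3 (0.23). In SJL against B6 they turned for Serpinh1 with array weights (0.035), without B6 replicate 3 (0.037, lowest -0.18), without SJL replicate 1 (0.035) and without KS replicate 3 and B6 replicate 3 (0.037), for Fkbp14 without B6 replicate 1 (0.0045, lowest -0.18) and for Loxl1 without SJL replicate 2 (-0.049, at most 0.42). Same-numbered arrays had correlations of deviations of -0.27 to 0.26 over 9 pairs. Those of KS and B6 were all above 0 (0.22, 0.16 and 0.061), but not every pair exceeded 0.1, so the numbers were not taken to pair the mice. With the replicate block, 3315, 1124 and 3509 probe sets and 2, 1 and 0 members were called in SJL minus KS, KS minus B6 and SJL minus B6, in that order. No member with a single tested probe set has a check by a second one.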
